A study of Mus musculus with 6 samples.

Results

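Actin cytoskeleton regulators were compared between regulatory T (Treg) cells that lack the neddylation E2 enzymes Ube2m and Ube2f and control Treg cells. The set was a list of 48 named genes that make, cut, cap, branch, bundle or anchor actin filaments, with the intermediate filament gene Vim and the navigator gene Nav2. A gene was taken as measured when a probe set on the array carried its symbol, and the brightest one over the 6 arrays stood for a gene with several. In this way 45 of the 48 genes were measured, among 19505 named genes on 22206 probe sets, while Actg1, Actr2 and Arpc3 had no probe set of that name and were not analysed here.

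Actin is a small protein that assembles into polar filaments, and the cell sets where and how fast filaments grow through proteins that hold monomers, start new filaments, branch them, cap their fast-growing barbed ends or cut them. Crosslinkers such as the α-actinins tie filaments into bundles, myosins pull on them, and ERM proteins and integrin adaptors fix them to the membrane. In T cells these proteins shape crawling, the contact with antigen-presenting cells and integrin adhesion, and inherited defects of Was, Dock8, Dock2, Coro1a or Arpc1b cause immune deficiency in humans. Neddylation is the attachment of the ubiquitin-like protein Nedd8, best known for switching on cullin-RING ubiquitin ligases.

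Both groups of mice were Foxp3 Cre/wt females, 8 to 12 weeks old, in which a Cre fused to yellow fluorescent protein (YFP) is driven by Foxp3. The control group carried no other change, and the deficient group was also Ube2m fl/fl;Ube2f fl/fl. X inactivation leaves these females with a second Treg population that uses the normal Foxp3 allele and keeps both genes, and according to the study these mice are free of inflammation. CD4+YFP+ cells were sorted from peripheral lymph nodes and spleens, cells of 2 to 3 mice were pooled for a sample, and there were 3 samples, each on 1 array, in each group. The sample titles name muscle, whereas tissue and cell type are given as lymph nodes, spleens and Treg cells. By their means over the 6 arrays, all 11 measured T cell markers were above the level of silent genes, and 16 of 18 skeletal muscle genes were at or below it.

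Values are log2 signals, so a difference of 1 is a doubling, and differences are deficient minus control. The level of silent genes was set at 5.39, the 95th percentile of 1091 olfactory receptor probe sets, which sorted T cells should not use. Ube2f checked the labels, with signals of 11.91, 11.82 and 11.90 in control and 9.70, 9.72 and 9.82 in deficient samples, and no probe set was named for Ube2m. Any 2 control arrays correlated at 0.988 to 0.993, any 2 deficient arrays at 0.982 to 0.990, and arrays of different groups at 0.975 to 0.985. Control 1 and deficient 2 were together the lowest of their groups for 7 actin genes and together the highest for 9.

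Most of the actin genes did not pass the test, and a few regulators moved far. Among the 45 measured genes 2 rose, Cnn3 and Actn1, and 4 fell, Nav2, Myo1f, Capg and Gsn, at an adjusted p under 0.05 in limma (Benjamini-Hochberg over all probe sets). The 6 genes were 13.3% of those measured. Over the whole array 2.85% of probe sets passed, 0.581% higher and 2.27% lower. Among probe sets with a mean above the level of silent genes 5.37% passed, 1.17% higher and 4.21% lower, and 5 of 42 actin genes above that level did, or 11.9%. Because the set was chosen with earlier results of these data known, these shares and those below describe it and do not test it. The median difference was 0.04 over the set and 0.02 over all named genes. Whether a lower signal reflects less RNA in each cell or fewer cells that hold it cannot be told apart in bulk samples.

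**Figure D1:**
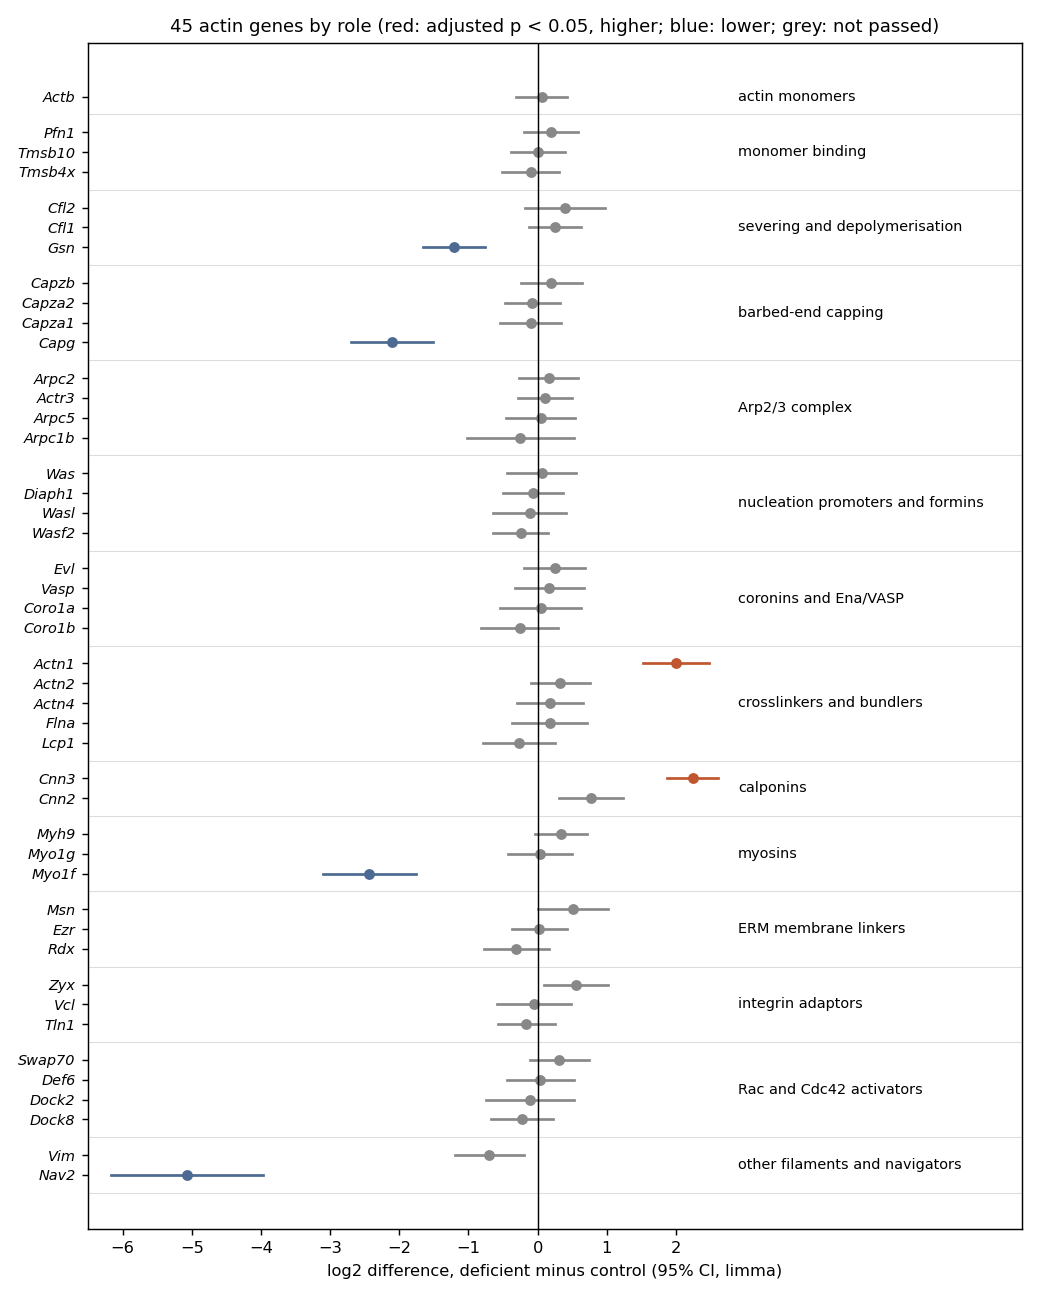
Log2 difference (deficient minus control) of the 45 measured actin genes on the horizontal axis, grouped by role, as points with 95% confidence intervals from limma (3 arrays in each group). Cnn3 and Actn1 lie near 2 on the higher side, Nav2 lies at -5.07, and 39 genes that did not pass lie between -0.70 and 0.77.

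The 6 genes that passed have different tasks. Crosslinking (Actn1) and the calponins (Cnn3) were on the higher side, and barbed-end capping (Capg), severing (Gsn), membrane-linked motor activity (Myo1f) and the navigators (Nav2) were on the lower side. Each came from a different role group, and in every one of those groups the other measured genes did not pass.

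Nav2, or neuron navigator 2, is a large protein of growing cell edges, studied mainly in neurons, that acts on the cytoskeleton together with microtubules. Its signal was 11.88, 10.84 and 10.69 in the control samples and 5.17, 7.12 and 5.91 in the deficient samples. The groups were far apart, and deficient 1 was below the level of silent genes. The difference was -5.07 (SE 0.49, 95% CI -6.17 to -3.97, adjusted p = 0.000822, limma), a 33.6-fold lower signal with an interval of 15.6 to 72.2. It had the widest spread of the set, with an SD of 0.65 in control and 0.98 in deficient samples, and leaving out any 1 sample gave -5.60 to -4.62.

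Myo1f, a single-headed class I myosin of blood cells that links membrane to actin, had signals of 9.73, 9.06 and 9.41 in control and 6.55, 7.58 and 6.77 in deficient samples. Every deficient sample was below every control sample, and deficient 2 was the highest of its group, as it was for Nav2. Myo1f fell by 2.43 on the log2 scale (SE 0.30, 95% CI -3.11 to -1.76, adjusted p = 0.00296, limma), which is 5.40-fold. Natural killer cells also use Myo1f, and the mean signal of 10 CD8 T and NK cell markers was 5.31 to 5.95 in control samples, 5.30 and 5.39 in deficient 1 and 3, and 6.82 in deficient 2. None of those 10 markers passed, and 5 had a mean over the 6 arrays at or below the level of silent genes. Their part in the Myo1f values was not tested.

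Capg, a gelsolin relative that caps barbed ends without cutting filaments, was at 11.70, 11.86 and 12.63 in control and 9.88, 10.16 and 9.84 in deficient samples. The lowest control value was above the highest deficient value. The difference was -2.10 (SE 0.26, 95% CI -2.70 to -1.51, adjusted p = 0.00327, limma), or 4.30-fold lower. Capg is also a known marker gene of Treg cells. Of the other 8 measured Treg markers 3 passed, all lower. Gpr83 (0.69) and Il2ra (0.60) had positive differences that did not pass. Ikzf4 (-0.68), Tnfrsf18 (-0.35) and Lrrc32 (-0.06) had negative ones that did not pass. The mean signal of the 8 markers was 13.35 to 13.47 in control and 12.87 to 13.08 in deficient samples, so Capg moved with part of that list.

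Gsn encodes gelsolin, which cuts filaments and caps the new ends when calcium rises. Its signals were 4.99, 5.41 and 5.41 in control and 3.87, 4.11 and 4.21 in deficient samples. The groups did not overlap, but both means were below the level of silent genes, so no fold is given. The difference was -1.21 (SE 0.20, 95% CI -1.66 to -0.76, adjusted p = 0.0144, limma). This call was lost without control 2, control 3 or deficient 1, with adjusted p up to 0.0733.

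Actn1 encodes a non-muscle α-actinin, a rod-shaped crosslinker that ties filaments to each other and to integrin adhesions. Its signal was 11.85, 11.83 and 12.30 in control and 14.23, 13.80 and 13.97 in deficient samples. No values overlapped. Actn1 rose by 2.01 (SE 0.21, 95% CI 1.53 to 2.48, adjusted p = 0.00128, limma), which is 4.02-fold with an interval of 2.89 to 5.59. Actn1 also stands on the list of conventional CD4 T cell genes used here. Of the other 8 measured genes of that list only Pde3b passed, rising by 3.18. Dapl1 (0.71), Tgfbr3 (0.63) and Ifngr2 (0.62) had positive differences that did not pass. Il7r (-1.12), Cd40lg (-0.45), Tox2 (-0.41) and Igfbp4 (-0.12) had negative ones that did not pass. The mean signal of the 8 genes was 8.78 to 9.15 in control and 8.96 to 9.61 in deficient samples. The log2 of their summed signal was 14.82 to 15.95 in control and 13.57 to 14.86 in deficient samples, and both measures overlapped between the groups. That sum rests mostly on Il7r, the brightest of the 8, at 14.98, 14.57 and 15.87 in control and 12.92, 14.53 and 14.61 in deficient samples. The part of the 8 genes in the Actn1 difference was not tested.

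Cnn3 encodes the acidic calponin, which binds along actin filaments and is best known from brain and non-muscle cells. Control samples gave 6.20, 6.21 and 6.23, and deficient samples gave 8.44, 8.41 and 8.52. The values were nearly the same within each group, the SD being 0.02 in control and 0.06 in deficient samples. Cnn3 rose by 2.24 (SE 0.16, 95% CI 1.87 to 2.61, adjusted p = 0.000194, limma), or 4.73-fold with an interval of 3.67 to 6.12. It passed under every alternative that was run, including the methods' t-test after Benjamini-Hochberg adjustment, where it was the only one of the set (adjusted p = 0.00701).

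Cnn2 and Vim did not pass but met the looser rule of the study, which asks for a fold above 1.5 and p under 0.05 without adjustment. By that rule, with limma's unadjusted p, 3 genes of the set were higher and 5 lower, against 9.06% of all probe sets in either direction, and with the methods' t-test 8 genes met it, against 6.74% of probe sets. Cnn2, the calponin of leukocytes, had signals of 13.47, 13.85 and 13.82 in control and 14.76, 14.32 and 14.38 in deficient samples. The groups were apart, and the difference was 0.77 (95% CI 0.31 to 1.23, adjusted p = 0.105, limma, 0.0508 to 0.304 over the alternatives fitted with limma). Vim, the intermediate filament of leukocytes and connective tissue cells, had signals of 15.37, 14.86 and 15.59 in control and 14.50, 14.65 and 14.57 in deficient samples. Control samples were spread over a wider range, and the difference was -0.70 (95% CI -1.20 to -0.20, adjusted p = 0.178, limma).

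**Figure D2:**
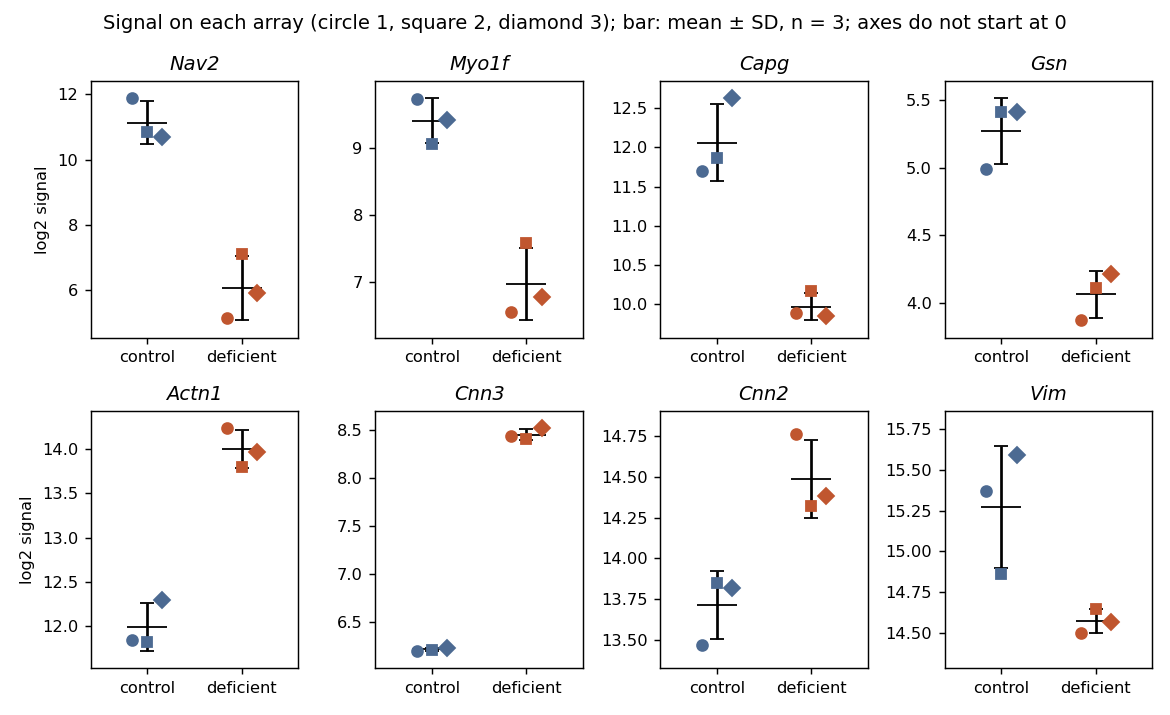
Log2 signal on the vertical axis for each of the 3 control and 3 deficient arrays, as points with the group mean ± SD, for the 6 genes that passed and for Cnn2 and Vim. Groups do not overlap in any panel, the Cnn3 points lie closest together, and vertical axes differ between panels and do not start at 0.

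The remaining genes are described by role. Actb, the β-actin gene, was at 19.37, 19.44 and 19.44 in control and 19.46, 19.52 and 19.46 in deficient samples. These are near the top of the array's range, which ended at 19.90, and the difference was 0.06 (95% CI -0.31 to 0.43). Of the monomer-binding proteins, profilin (Pfn1) differed by 0.19, and the thymosins Tmsb4x and Tmsb10, which store monomers, by -0.10 and 0.00. The cofilins, which sever and recycle old filaments, differed by 0.26 for Cfl1 and 0.40 for Cfl2. All of these intervals included 0.

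CapZ is the heterodimer that caps barbed ends in most cells. Its subunits Capza1, Capza2 and Capzb differed by -0.10, -0.08 and 0.20, all with intervals inside -0.54 to 0.65. Thus a halving or doubling of a CapZ subunit lay outside the intervals, while Capg in the same role group was 4.30-fold lower.

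The Arp2/3 complex starts branches on existing filaments. Its measured subunits Arpc2, Arpc5 and Actr3 differed by 0.16, 0.05 and 0.11. Arpc1b had the least settled value of the complex, with 13.54, 14.33 and 14.47 in control and 14.34, 13.21 and 14.04 in deficient samples. Its low samples were control 1 and deficient 2, the groups overlapped, and the difference of -0.25 had an interval of -1.02 to 0.52 and turned to 0.08 without deficient 2. The proteins that switch the complex on, Was of blood cells, its wider relative Wasl and the WAVE protein Wasf2, differed by 0.06, -0.11 and -0.24, and the formin Diaph1, which grows unbranched filaments, by -0.06. None of the 8 had an adjusted p below 0.668. Was lay close to the level of silent genes, with 5.25, 5.82 and 5.89 in control and 5.68, 5.55 and 5.90 in deficient samples. Its small difference therefore says little about its RNA.

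Coronins sit on filaments and help to recycle Arp2/3 branches, and Ena/VASP proteins protect growing ends from capping. Coro1a and Coro1b differed by 0.05 and -0.26, and Vasp and Evl by 0.17 and 0.25. Among crosslinkers, the second non-muscle α-actinin Actn4 differed by 0.17, filamin A (Flna) by 0.17, and L-plastin (Lcp1), the bundler of leukocytes, by -0.27. The muscle α-actinin Actn2 was below the level of silent genes in both groups, with a difference of 0.33. None of these passed, and the smallest adjusted p among the 8 was 0.553.

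Myo1g, a class I myosin of lymphocytes, differed by 0.03, and Myh9, the heavy chain of non-muscle myosin IIA, by 0.34 with an adjusted p of 0.452. The ERM proteins link filaments to membrane receptors. Msn, or moesin, differed by 0.51 (95% CI 0.00 to 1.02, adjusted p = 0.389), Ezr by 0.03 and Rdx, or radixin, by -0.31. Of the integrin adaptors, talin (Tln1), which activates integrins, differed by -0.17. Zyxin (Zyx), which gathers on strained filaments, had signals of 7.94, 7.97 and 8.19 in control and 8.90, 8.52 and 8.35 in deficient samples, a difference of 0.56 (95% CI 0.10 to 1.02, adjusted p = 0.264, limma). Its groups did not overlap although it did not pass. Vinculin (Vcl) was below the level of silent genes in both groups.

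Dock2 and Dock8, exchange factors that load Rac and Cdc42 in leukocytes, differed by -0.11 and -0.23. The related Rac regulators Swap70 and Def6 differed by 0.31 and 0.04. None of these 4 genes passed, with a smallest adjusted p of 0.580.

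Together 39 genes did not pass, 24 with a positive and 15 with a negative difference, and 35 of them lay within 0.5 of 0. A p above the threshold does not show equality, but for 34 of the 39 the 95% CI lay inside -1 to 1. A doubling or halving of the signal was outside it. These genes include Actn2 and Vcl below the level of silent genes, Was close to it and Actb near the top of the range. For those the signal may not follow a change in RNA. Groups did not overlap for 15 genes of the set, 10 higher and 5 lower, or 33.3%, against 18.2% of all probe sets (8.22% higher, 9.97% lower).

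Whether close relatives moved unequally was asked in 13 measured pairs by taking the difference of their log2 signals on each array. This gives the change in their ratio and does not compare their levels. The ratio of Actn1 to Actn4 rose by 1.83 (95% CI 1.43 to 2.24). Its values were -0.99, -0.71 and -0.89 in control and 1.10, 0.73 and 1.08 in deficient samples. The ratio of Cnn3 to Cnn2 was higher by 1.47 (95% CI 0.95 to 1.99), from -7.27, -7.64 and -7.59 to -6.32, -5.91 and -5.86. Both calponins had positive differences, and that of Cnn3 was the larger. The ratio of Myo1f to Myo1g was lower by 2.47 (95% CI -3.80 to -1.13), from -3.02, -4.10 and -3.97 to -6.66, -5.51 and -6.32. The ratio of Rdx to Msn was lower by 0.82 (95% CI -1.36 to -0.27), although neither ERM gene passed alone, and its values went from 1.01, 1.15 and 0.62 to 0.23, -0.12 and 0.22. In these 4 pairs the groups did not overlap, and p was 0.1 in a two-sided exact permutation test, which cannot go lower with 3 against 3 samples, and 0.325 after adjustment over the 13 pairs. No pair can therefore pass that test.

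In the other 9 pairs the groups overlapped and every interval included 0. The interval was -0.52 to 0.48 for Capza1 over Capza2, -0.46 to 0.30 for Vasp over Evl and -0.44 to 0.23 for Tmsb4x over Tmsb10, so that a doubling of these ratios in either direction lay outside it. It was wider for Cfl1 over Cfl2 (-1.01 to 0.73), Was over Wasl (-0.97 to 1.31) and Coro1a over Coro1b (-0.64 to 1.25). Was lay close to the level of silent genes, which limits its ratio too. Ezr over Msn differed by -0.48, Swap70 over Def6 by 0.28 and Dock2 over Dock8 by 0.12, and none of these had an exact permutation p under 0.2.

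**Figure D3:**
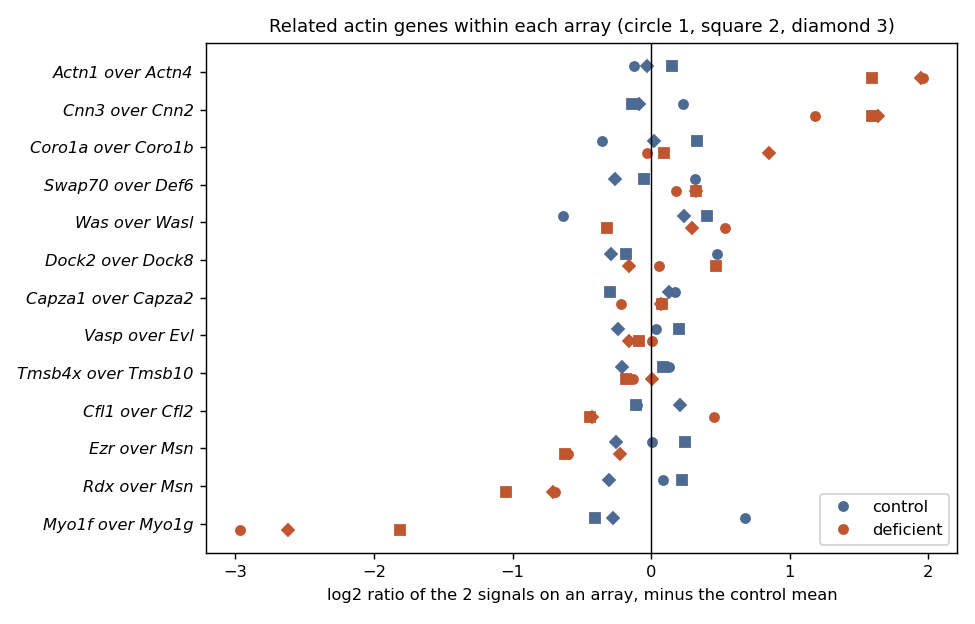
Log2 ratio of 2 related genes on each of the 6 arrays, after subtracting the mean of the 3 control arrays, on the horizontal axis, for 13 pairs. Deficient points lie apart from control points for Actn1 over Actn4, Cnn3 over Cnn2, Rdx over Msn and Myo1f over Myo1g, and the colours mix or touch in the other 9.

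Promoter sequences are shown for the members that rose, for Cnn2 as the relative of Cnn3, and for Nav2, to show what their starts share. They run from 250 bases before to 50 after the RefSeq start (mouse GRCm38.p6), and 42 of the 45 measured genes had one. The CArG box, the site of serum response factor (SRF), a regulator of many actin genes, was searched by name, and the GC box as GGGCGG, both on both strands. A CArG box was present in 1.63% of 32851 promoters and in 2 of the 42, Cnn2 and Vcl, neither of which passed. A GC box was present in 35.7% of all promoters and in 35 of the 42, among them 5 of the 6 genes that passed. The shares over all promoters count each start, while a gene of the 42 counts if any of its starts holds the box. The 2 kinds of count are therefore not like for like. Cnn3 lies at chr3:121426291-121426590 on the + strand, Cnn2 at chr10:79988350-79988649 on the + strand and Actn1 at chr12:80260314-80260613 on the - strand. Nav2 has 2 RefSeq starts here, at chr7:48958823-48959122 and chr7:49245939-49246238, both on the + strand. Capitals mark GC boxes and, in Cnn2, also the CArG box, the run of capitals that begins with CCTT.
Cnn3: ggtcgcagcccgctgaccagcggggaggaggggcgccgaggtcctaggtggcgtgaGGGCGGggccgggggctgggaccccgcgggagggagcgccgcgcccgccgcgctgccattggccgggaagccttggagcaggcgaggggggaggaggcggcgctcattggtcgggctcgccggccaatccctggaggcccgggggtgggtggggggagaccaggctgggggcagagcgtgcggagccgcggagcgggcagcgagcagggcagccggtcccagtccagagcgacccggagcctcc
Cnn2: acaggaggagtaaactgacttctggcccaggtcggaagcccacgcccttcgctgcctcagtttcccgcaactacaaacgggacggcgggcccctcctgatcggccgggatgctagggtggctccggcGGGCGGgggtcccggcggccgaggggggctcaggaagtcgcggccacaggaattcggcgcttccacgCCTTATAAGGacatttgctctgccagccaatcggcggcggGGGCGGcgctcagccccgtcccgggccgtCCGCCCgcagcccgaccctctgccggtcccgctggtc
Actn1: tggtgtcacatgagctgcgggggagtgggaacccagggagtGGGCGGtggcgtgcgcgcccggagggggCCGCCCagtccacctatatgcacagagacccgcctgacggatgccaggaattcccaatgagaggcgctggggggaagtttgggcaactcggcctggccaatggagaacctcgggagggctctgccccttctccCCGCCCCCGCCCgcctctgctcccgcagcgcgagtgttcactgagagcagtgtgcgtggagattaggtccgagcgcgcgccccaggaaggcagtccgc
Nav2 upstream start: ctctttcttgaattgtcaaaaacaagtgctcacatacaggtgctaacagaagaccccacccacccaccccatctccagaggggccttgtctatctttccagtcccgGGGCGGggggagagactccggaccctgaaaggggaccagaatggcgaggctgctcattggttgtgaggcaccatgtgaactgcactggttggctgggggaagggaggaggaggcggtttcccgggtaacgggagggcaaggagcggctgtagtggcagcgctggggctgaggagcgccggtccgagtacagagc
Nav2 downstream start: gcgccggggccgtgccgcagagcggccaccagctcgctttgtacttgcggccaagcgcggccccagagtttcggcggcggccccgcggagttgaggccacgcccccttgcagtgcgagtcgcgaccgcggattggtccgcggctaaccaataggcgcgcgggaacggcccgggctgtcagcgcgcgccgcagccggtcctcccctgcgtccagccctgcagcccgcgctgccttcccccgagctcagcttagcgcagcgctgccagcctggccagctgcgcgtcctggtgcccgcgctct
Cnn3 and the upstream start of Nav2, which moved in opposite directions, each held 1 GC box and no CArG box. Actn1 held 4 GC boxes, 2 of them side by side, Cnn2 held 3, and the downstream start of Nav2 held none. These matches describe letters in a window and are not evidence of binding.

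Other genes of the actin pathway were followed through 9 lists that together held 302 genes, 273 of them measured. Of these 3 rose and 15 fell at an adjusted p under 0.05, or 6.59%, and 255 did not pass. Over all probe sets 2.85% passed, 0.581% higher and 2.27% lower, and above the level of silent genes 5.37% did. The 6.59% also covers genes at or below that level, but the lists hold a smaller part of such genes than the array does. Neither share is therefore like for like with it. The lists too were chosen with earlier results of these data known, so this share describes them and does not test them. The median difference over the 273 genes was 0.00. Genes of 7 lists are described, and the other 2 lists, with 85 measured genes, held 5 of the 15 that fell and none that rose.

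Among 24 integrin adaptors and adhesion kinases 2 fell. Lpxn, or leupaxin, a paxillin relative of leukocytes, was at 11.97, 11.58 and 12.11 in control and 9.58, 9.60 and 9.52 in deficient samples and fell by 2.32 (adjusted p = 0.000404, limma). Tns1, which couples integrins to filaments, fell by 1.52. The 3 integrin adaptors of the set, Tln1, Vcl and Zyx, did not pass. Of 24 myosins and light chains Myo1h fell by 1.97, to a mean below the level of silent genes, and Myo1e fell by 1.26. Their relatives Myo1d (-0.78), Myo1c (-0.38) and Myo1a (-0.04) did not pass.

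In the nucleation list 1 of 32 passed, Nckap1, a subunit of the WAVE complex, which fell by 1.63. Of 32 turnover and capping genes Cotl1, a coactosin, rose by 1.03, and Twf2, a twinfilin that binds monomers, rose by 0.84. Lima1 fell, with 6.10, 5.86 and 6.05 in control and 4.59, 5.15 and 3.76 in deficient samples. Its deficient mean was below the level of silent genes. Tagln2, a calponin relative, was the only one of 25 crosslinkers and tropomyosins to pass and fell by 1.38, opposite in direction to Cnn3. Fscn1, a bundler of mature dendritic cells, is named after its values were seen, being the highest of the 273 genes at 3.53. It was at 3.72, 2.83 and 3.74 in control and 4.56, 9.47 and 6.85 in deficient samples and did not pass (adjusted p = 0.130, limma). The mean signal of 13 myeloid and dendritic cell markers was 3.84 to 3.97 in control samples, 3.88 in deficient 1, 4.34 in deficient 2 and 4.22 in deficient 3, so it was highest in the 2 samples where Fscn1 was highest. Lyz2, the lysozyme of myeloid cells, was at 5.88 and 5.75 in those 2 samples and 4.26 to 4.60 in control samples. Xcr1 of the same list was at 4.40 and 3.99 in them and 4.10 to 4.90 in control samples. All 13 markers had a mean over the 6 arrays at or below the level of silent genes, and none passed. Only 1 of them was above that level in deficient 2 and 3 in deficient 3. Their part in the Fscn1 values was not tested. Among 16 genes of the SRF pathway Actg2, a smooth muscle actin, fell by 2.08 (adjusted p = 0.00179, limma), with a deficient mean below the level of silent genes. Of 35 septins, navigators and microtubule genes Stmn1, which takes microtubules apart, rose by 1.80, and the plus-end proteins Mapre2 and Mapre3 fell by 1.09 and 0.93. Of the 18 genes that passed in the 9 lists 6 did so in 14 of 15 alternatives, all but the methods' t-test, namely Lpxn, Actg2, Myo1h and 3 genes of the lists not described. Each of the others was lost in 4 to 13 alternatives, the fewest for Tns1 and the most for Mapre3, with Twf2 lost in 10.

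**Figure D4:**
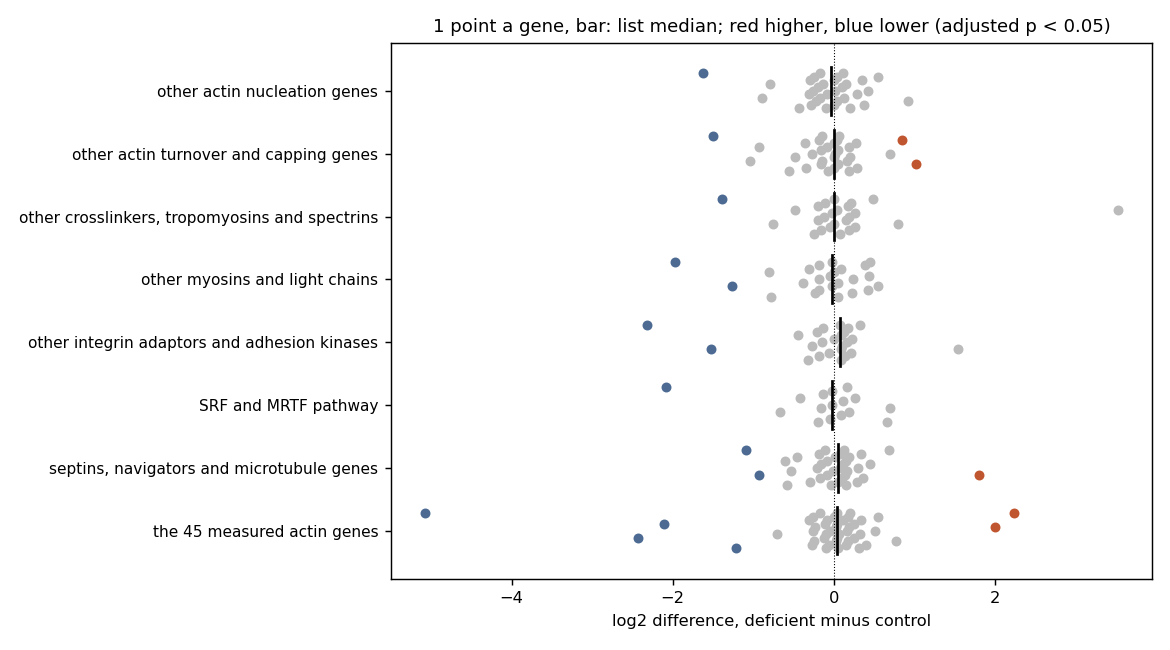
Log2 difference (deficient minus control) of each measured gene on the horizontal axis, for 7 of the 9 lists of other actin pathway genes and for the 45 measured actin genes, with the list median as a bar. List medians lie between -0.04 and 0.08, and coloured points, which passed at an adjusted p under 0.05 in limma, are mostly on the lower side.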

How the data were processed

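RNA of 6 sorted Treg cell pools (miRNeasy, pico kit amplification, biotin label) was hybridised to Clariom S mouse arrays with 1 colour. The values analysed were the log2 signals the authors deposited, 1 for each probe set and array, made with Affymetrix Expression Console 1.4 per the submitters' processing notes. The summarisation, background correction and log base were not given in the sources used here, and base 2 was read from the range of 2.06 to 19.90. Scanner intensities, detection calls and scan batches were not used here, so the number of arrays limits the precision. Gene symbols came from GEO's platform annotation, which named 19572 of 22206 probe sets.

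Groups followed the titles. The fit was made with limma 3.58.1 under R 4.3.3 (lmFit, eBayes, group as the only term, no filter, two-sided), with Benjamini-Hochberg adjustment over all probe sets, after a check on simulated data. Pools of mice are the replicates, so p-values reflect pool-to-pool spread. Ratios of related genes were compared by an exact permutation test with intervals from a pooled variance. Promoters came from RefSeq (GRCm38.p6). All measured genes of the set are named, those at an adjusted p under 0.05 with every array value, and up to 3 passing genes of each pathway list, except that the genes of 2 of the 9 lists are counted in the totals but not reported here. The set and the lists were chosen with earlier results of these data known. Same-numbered samples were not taken as pairs. Alternatives were array weights, a trended robust prior, quantile normalization, centring each array on its median, dropping the dimmest 40% of probe sets, averaging a symbol's probe sets, the methods' t-test, the study threshold, a replicate block and leaving out each replicate. Added after seeing the data were the fit without control 1 and deficient 2 together and the t-test at the study threshold.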

Additional observations from a re-analysis of the deposited data

How the results depend on the processing

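With 3 arrays in each group, calls near the threshold depend on single arrays. Across the alternatives fitted with limma, Cnn3, Actn1, Nav2, Myo1f and Capg stayed past the threshold, and Gsn did not in 3 of them. The methods' t-test after Benjamini-Hochberg adjustment called 1 gene of the set higher and 0 lower, 0 and 0 of the pathway lists, and 1 and 5 probe sets of the whole array, against 129 higher and 503 lower with limma, while 2855 probe sets had an unadjusted limma p under 0.05. At the study threshold limma's p called 719 and 1292, and the t-test called 8 genes of the set and 6.74% of probe sets.

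Leaving out 1 replicate gave 46 to 81 probe sets higher and 269 to 431 lower over the array, and 0 to 2 pathway genes higher and 6 to 14 lower. Deviations from the group means correlated at -0.06, -0.24 and 0.29 for same-numbered samples and at -0.43 to 0.44 for other pairs. Deviations from the mean of so few arrays are tied to each other. The correlations therefore cannot settle whether the numbers pair the samples. A replicate block kept 2 genes of the set higher and 4 lower and gave 0 higher and 9 lower in the pathway lists and 70 probe sets higher and 367 lower. Without control 1 and deficient 2 together, chosen after seeing the data, the set had 2 genes higher and 4 lower. In that fit 0 pathway genes and 50 probe sets were higher and 13 pathway genes and 353 probe sets were lower. The cause was not tested.

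Directions turned only for genes that did not pass and for pairs whose groups overlapped, and no pair can pass its exact test. Leaving out 1 replicate gave -0.54 to 0.077 for Arpc1b, -0.072 to 0.20 for Arpc5, -0.22 to 0.19 for Coro1a, -0.077 to 0.24 for Def6, -0.21 to 0.03 for Diaph1, -0.35 to 0.19 for Dock2, -0.035 to 0.13 for Ezr, -0.14 to 0.18 for Myo1g, -0.073 to 0.072 for Tmsb10, -0.20 to 0.012 for Tmsb4x, -0.027 to 0.33 for Vasp, -0.20 to 0.19 for Vcl, -0.15 to 0.18 for Was and -0.28 to 0.083 for Wasl. The ratios gave -0.17 to 0.075 for Capza1 over Capza2, -0.43 to 0.01 for Cfl1 over Cfl2, -0.053 to 0.36 for Dock2 over Dock8, -0.20 to 0.022 for Vasp over Evl and -0.15 to 0.41 for Was over Wasl. Without control 1 and deficient 2 together, Coro1a was at -0.10, Def6 at -0.03, Dock2 at 0.08, Myo1g at -0.12, Tmsb10 at -0.095 and Was at -0.065. Quantile normalization gave 0.03 for Diaph1 and -0.046 for Tmsb10, and Tmsb10 was at -0.0028 with array weights and -0.023 with median centring. Actn2 and Vcl had no value once the 40% dimmest probe sets were left out.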
